A study of Mus musculus with 6 samples.

Results

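Aminoacyl-tRNA synthetases join each amino acid to its own transfer RNA (tRNA), the step that lets a ribosome read the genetic code. Mouse cells translate in the cytosol and, separately, inside mitochondria, and for most amino acids a separate nuclear gene encodes the mitochondrial enzyme. The 36 genes described here were taken by symbol, though with earlier results of these data known. There are 17 genes for cytosolic forms and 16 for mitochondrial forms (the symbols ending in 2), and Gars, Kars and Qars are shared or special. Of these, 35 had a probe set with that symbol in the platform annotation and 26 were tested, among 10264 genes tested on the arrays. Dars was not matched to a probe set and is not analysed here.

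The arrays compare interscapular brown fat with epididymal white fat, dissected from 3 untreated male C57BL/6 mice kept at ambient temperature and aged 10 to 12 weeks, to find genes selective for either tissue. There were 3 brown and 3 white arrays, 1 per sample, and the labels tie no array number to a mouse. Depot and fat type cannot be told apart in this design, and each sample is whole tissue, so a larger share of a cell type and more RNA per cell of that type cannot be told apart either. Array signals were scaled to a common distribution (quantile normalisation), and each value below is that normalised signal. All differences are brown minus white on the log2 scale, with a threshold of 0.05 on the limma adjusted p.

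The marker lists were chosen with earlier results of these data known. Counts in them are therefore no independent check of the tissue labels. All 12 brown adipocyte markers were higher in brown (28.2% of all genes were). All 10 white adipocyte markers were higher in white (32.7% of all genes were). With presence on all 6 arrays required, 4 brown and 4 white adipocyte markers were left, called in the same directions. The others could pass the detection filter through the tissue where they are high. The brown fat uncoupler Ucp1 reached 12942 ± 267 on brown arrays against 26.1 ± 31.7 on white arrays (SD, n = 3), and the hormone gene Lep 54.2 ± 19.2 against 1743 ± 16.5. The deposited series-wide table runs the other way: its columns correlated with the array files of the other tissue at a Spearman rho of 0.826 to 0.887 and with those of the same tissue at 0.799 to 0.810, so only the array files were used, and directions rest on them. Before scaling, the median signal was 37.6 to 39.4 on brown arrays and 52.1 to 52.5 on white arrays, and 35.6% to 37.5% against 45.2% to 45.8% of probe sets were called present (distinguished from background by the deposited detection call). Marker signals of other cell types also differed. The summed signal of 14 macrophage markers was 3456 to 3988 on brown arrays and 21750 to 22210 on white arrays, with all 14 higher in white. The 10 mesothelial markers summed to 326.5 to 351.9 and 4362 to 4388, with all 10 higher in white. With presence on all 6 arrays required, 12 macrophage markers were left, all higher in white, but only 1 mesothelial marker. The other mesothelial markers could pass the filter through white arrays alone. Fibroblast and matrix markers (11 of 12 higher in white) summed to 10610 to 11320 against 41620 to 42360, and endothelial markers (1 higher in brown and 5 in white of 10) to 3519 to 3746 against 4630 to 4757. Of 12 lymphocyte markers 4 were tested, 2 were higher in white and their sums were 295.4 to 340.6 against 5183 to 6185. Most of the white sum came from Ighm alone (118 ± 25.6 in brown against 4891 ± 525 in white, SD, n = 3), which was called absent on all brown arrays. The other call was Ptprc (-2.56), while Cd8a (0.30) and Ms4a1 (-0.41) were not called. Of 12 skeletal muscle markers 4 were tested, 3 were higher in brown and their sums were 1104 to 1536 against 552.6 to 695.3. The remaining muscle marker, Acta1, lay lower in brown and was not called (-2.51, limma adjusted p = 0.113). That muscle count dropped to 1 when either brown array 2 or brown array 3 was left out, and also when white array 2 or white array 3 was, and with the signals as deposited 1 was higher in brown and 1 in white. Of 6 Schwann cell markers 3 were tested, 2 were higher in brown and their sums were 874.8 to 960.0 against 202.7 to 215.1. Most of the brown sum came from S100b (567 ± 41.1 in brown against 22.3 ± 6.92 in white, SD, n = 3). Sox10 was not called (0.39, limma adjusted p = 0.110), so the list does not show more Schwann cells in brown. The part of these cells in the differences below was not tested.

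All 10 tested mitochondrial synthetases were higher in brown, by 1.54-fold (Nars2) to 3.73-fold (Yars2). For comparison, 28.2% of the 10264 genes had a higher brown signal at the same threshold, and 61% were called in either direction. Each of the 10 was called present on all 6 arrays, so none entered the test through 1 tissue alone, and among genes present on all arrays 33.4% were higher in brown and 31.9% in white. Their median difference was 0.99, against -0.04 over all genes tested. The brown and white arrays did not overlap for any of the 10, which was also so for 67.3% of all genes.

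**Figure D1:**
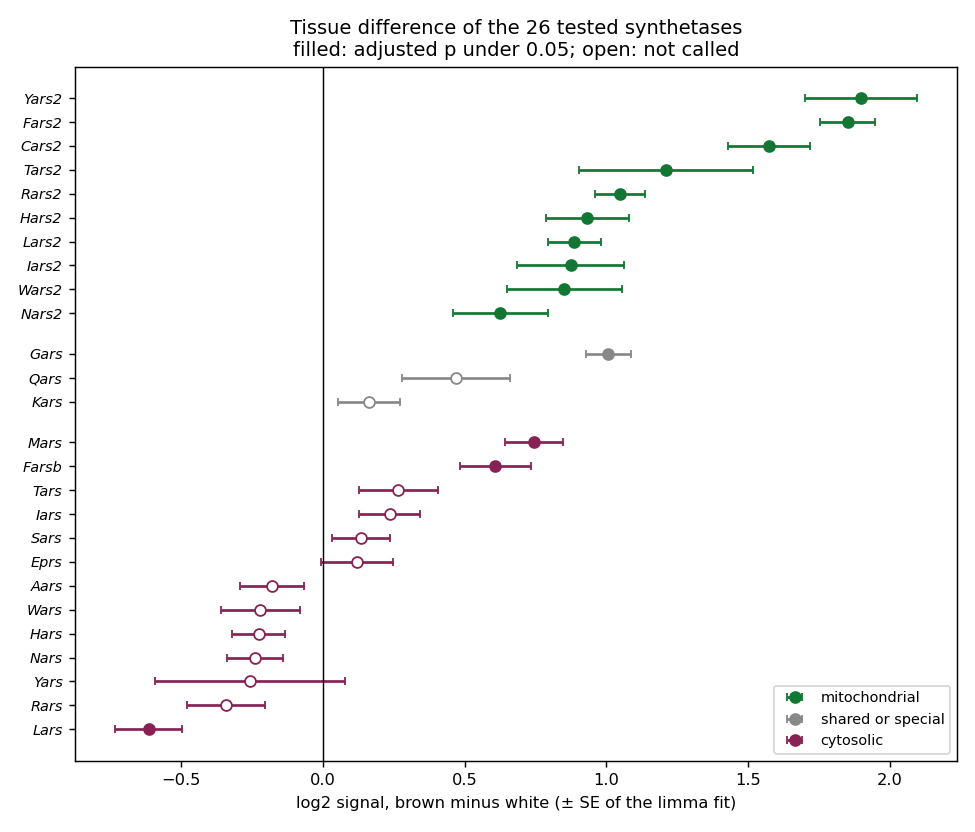
Differences in log2 signal (brown minus white, horizontal axis) for the 26 tested synthetases, with bars of 1 standard error and filled points for adjusted p under 0.05. The mitochondrial forms lie between 0.63 and 1.90, and the cytosolic forms between -0.62 and 0.75.

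Yars2, the mitochondrial tyrosyl-tRNA synthetase, had signals of 157, 179 and 178 on the brown arrays and 36.6, 45.9 and 57.4 on the white arrays. The lowest brown array was far above the highest white array, and the difference was 1.90 ± 0.198 (SE; limma adjusted p = 1.9e-05). Fars2, which charges mitochondrial tRNA with phenylalanine, had 677, 788 and 771 in brown, against 208, 215 and 196 in white. Its difference was 1.85 ± 0.0976 (SE; limma adjusted p = 1.33e-07), a 3.61-fold higher signal in brown. Cars2, the mitochondrial cysteinyl form, had 216, 246 and 192 in brown and 74.5, 70.3 and 73.9 in white. The white arrays lay close together and the brown arrays spread more, with a difference of 1.57 ± 0.146 (SE; limma adjusted p = 7.9e-06). A second probe set had the same direction for each of these genes, at 1.51 for Yars2, 1.50 for Fars2 and 1.28 for Cars2. Each was called present on 2 of the 3 white arrays. Those of Yars2 and Fars2 have IDs ending in x_at, a kind that can read related transcripts. Another Cars2 probe set, called absent on all arrays, gave 0.27 with overlapping tissues.

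Tars2, for threonine (2.31-fold), and Rars2, for arginine (2.07-fold), differed in precision. Tars2 had 134, 125 and 154 in brown and 33.9, 78.5 and 78.2 in white, where replicate 1 was well below the others (difference 1.21 ± 0.306, SE; limma adjusted p = 0.00653). Another Tars2 probe set, also with an ID ending in x_at, gave 121, 137 and 123 against 47.4, 57.3 and 58.9, a difference of 1.22. White replicate 1 stood less far from the others there. Rars2 had 654, 598 and 582 in brown and 297, 286 and 303 in white, with little spread in either tissue (difference 1.05 ± 0.0889, SE; limma adjusted p = 4.11e-06).

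The other 5 tested mitochondrial forms differed by less than 1 on the log2 scale. Hars2 (histidine) differed by 0.93, Lars2 (leucine) by 0.89, Iars2 (isoleucine) by 0.87, Wars2 (tryptophan) by 0.85 and Nars2 (asparagine) by 0.63, with limma adjusted p-values of 0.000322, 2.22e-05, 0.00263, 0.00481 and 0.00873. Second probe sets were weaker for Hars2 (0.42, limma adjusted p = 0.148 over probe sets) and for Wars2 (0.58, 0.0542). With the signals as deposited, which lie lower on the brown arrays, 6 of the 10 mitochondrial forms stayed past the threshold, and so did 6 with scaling to the spike-in controls. Of all 10264 genes, 1535 and 1357 were higher in brown in those settings, against 2895 as reported. The median over all genes tested then moved to -0.50 in both settings, and the mitochondrial median relative to all genes was 1.01, against 1.03 as reported.

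The remaining 6 mitochondrial forms were not tested, because fewer than 3 arrays called their probe sets present. Aars2 (alanine) was called absent on all 6 arrays, with signals of 171, 139 and 168 in brown and 14.6, 12.4 and 6.79 in white. Pars2 (proline) had 159, 187 and 138 against 89.0, 65.9 and 83.3, with 1 white array called present. Sars2 (serine) had 173, 265 and 172 against 114, 117 and 124, with 1 brown array called present. The brighter of the Vars2 (valine) probe sets had 128, 105 and 149 against 53.5, 70.4 and 75.9, all absent. These 4 genes had higher signals on every brown array than on any white array, though at most 1 array of a probe set was called present. How often probe sets below the filter show such a gap was not computed, so this count has no share to be read against. The brighter Mars2 (methionine) probe set also lay higher in brown, by a narrow gap, with 21.1, 11.9 and 22.3 against 9.38, 9.88 and 11.4 and 2 brown arrays called present. For Ears2 (glutamate) the tissues overlapped, with 80.4, 61.2 and 76.2 in brown and 70.7, 80.6 and 70.6 in white on the brightest of its 4 probe sets.

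Cytosolic synthetases had no common direction in quantile-normalised signals (as deposited, 10 of 13 were higher in white, as were 5760 of 10264 genes). Of 13 tested, Mars and Farsb were higher in brown, Lars alone was higher in white, and the other 10 missed the threshold. Over the whole array the shares were 28.2% for brown and 32.7% for white. Their median difference was -0.18, or 0.07 without probe sets prone to cross-hybridisation (IDs ending in x_at or s_at) and 0.15 without brown replicate 3. In quantile-normalised signals 0 of the 13 cytosolic forms and 5 of the 10 mitochondrial forms differed by 1 or more on the log2 scale, whereas 10.9% of all genes were called higher in brown and 14.4% in white by at least that much. Brown and white arrays did not overlap for 6 of the 13, against 67.3% of all genes.

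Mars, which makes the methionyl-tRNA that starts cytosolic protein chains, had 356, 392 and 380 in brown and 237, 227 and 210 in white. Every brown array was above every white array, and the difference was 0.75 ± 0.101 (SE; limma adjusted p = 0.000127). Farsb, the beta subunit of the cytosolic phenylalanyl enzyme, had 441, 350 and 392 against 245, 237 and 293 (0.61 ± 0.125, SE; limma adjusted p = 0.00198). The other tested Farsb probe set gave 0.11 (limma adjusted p = 0.564 over probe sets), and both are of a kind that can read related transcripts. Below the filter, 1 Farsb probe set gave 0.74, with 206, 164 and 197 in brown against 104, 119 and 114 in white. Another, called absent on all arrays, gave -0.32. Farsa, the alpha subunit, was called absent on all arrays by each of its 4 probe sets.

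Lars, the cytosolic leucyl-tRNA synthetase, which also senses leucine for the growth-control kinase mTORC1, went the other way, with 218, 271 and 222 in brown and 339, 374 and 371 in white. Its highest brown array was below its lowest white array, and the difference was -0.62 ± 0.117 (SE; limma adjusted p = 0.00121). Its mitochondrial counterpart Lars2 had 523, 489 and 475 in brown and 270, 252 and 283 in white, a difference of 0.89 ± 0.0948 (SE; limma adjusted p = 2.22e-05). In the quantile-normalised signals of all arrays, leucine was the single amino acid whose tested forms were called in opposite directions, and both calls held in each of 15 alternative settings. Other pairs joined it in some of these: Rars, for example, was called higher in white in 6 of the 15, and Rars2 higher in brown in all of them.

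The 10 cytosolic forms not called differed by -0.34 to 0.27, with limma adjusted p from 0.0563 to 0.533; 4 lay above 0 and 6 below. Tars (threonine) had 0.27, Iars (isoleucine) 0.24, Sars (serine) 0.13 and Eprs, a fused enzyme for glutamate and proline, 0.12. These 4 values turned to -0.28, -0.28, -0.28 and -0.35 with the signals as deposited. Rars (arginine) had -0.34, Yars (tyrosine) -0.26, Nars (asparagine) -0.24, Hars (histidine) -0.23, Wars (tryptophan) -0.22 and Aars (alanine) -0.18. With the deposited scaling 10 cytosolic forms were higher in white and 1 in brown, of 5760 and 1535 genes in all. With spike-in scaling 7 were higher in white and 0 in brown, of 5355 and 1357 genes in all. Relative to all genes, the cytosolic median was -0.14 as reported and -0.11 in both of those settings. The probe sets of Wars disagreed in sign, at -0.22, 0.21, -0.16 and -0.15, and so did those of Aars (-0.18 and 0.02) and Hars (-0.23 and 0.15). Yars was called absent on all 3 brown arrays, where it spread from 65.2 to 192. Cars (cysteine) and Vars (valine) were below the filter; the brighter Cars probe set had 160, 142 and 110 in brown and 127, 131 and 139 in white, and Vars 150, 86.1 and 55.9 against 123, 103 and 104, so that the arrays overlapped for both.

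Gars and Kars each give rise to both a cytosolic and a mitochondrial enzyme, for glycine and lysine, and the arrays do not separate those products. Gars was higher in brown, with 951, 989 and 933 against 449, 512 and 471 in white. Its tissues were far apart relative to their spread, with a difference of 1.01 ± 0.0800 (SE; limma adjusted p = 2.54e-06), close to the median of the mitochondrial forms. Kars had 249, 244 and 218 against 211, 214 and 209 and was not called (0.16 ± 0.109, SE; limma adjusted p = 0.224), although every brown array was above every white array. With the signals as deposited Kars was higher in white (-0.36, limma adjusted p = 0.0133). Qars encodes the glutaminyl enzyme of the cytosol. Its signals were 355, 419 and 651 in brown and 332, 320 and 344 in white, with brown replicate 3 far above the rest (0.47 ± 0.189, SE; limma adjusted p = 0.0549), and its other 3 probe sets gave 0.18, 0.19 and 0.30. Qars was past the threshold with 64 signal units added (limma adjusted p = 0.0435), with probe sets present on all arrays (0.0434), with the replicate number as a block (0.0283) and without brown replicate 1 (0.0108).

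Setting each mitochondrial form against its cytosolic counterpart on the same array removes any factor common to the array. Both forms were tested for 8 of 16 pairs, and in all 8 the ratio of mitochondrial to cytosolic signal was higher on every brown array than on every white array. Single genes had non-overlapping arrays, in either direction, in 67.3% of cases. The share of ratios of other gene pairs that separate this way was not computed. The difference in log2 ratio was largest for Yars2 over Yars (2.16 ± 0.471, SE, n = 3 per tissue), which rests on the Yars signals called absent in brown. It was 1.50 ± 0.141 for Lars2 over Lars and 1.39 ± 0.105 for Rars2 over Rars, where the mitochondrial form was higher in brown and the cytosolic form had a negative difference. It was 1.16 ± 0.173 for Hars2 over Hars, 1.07 ± 0.187 for Wars2 over Wars and 0.94 ± 0.319 for Tars2 over Tars. Nars2 over Nars gave 0.87 ± 0.190, and Iars2 over Iars gave the smallest value at 0.64 ± 0.225. The median over the 8 pairs was 1.12, and 1.02 under each of the deposited, median-centred and spike-in scalings. With 3 arrays against 3, an exact permutation test cannot go below p = 0.1 (two-sided), which each of these pairs reaches, so no pair was called on its own.

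**Figure D2:**
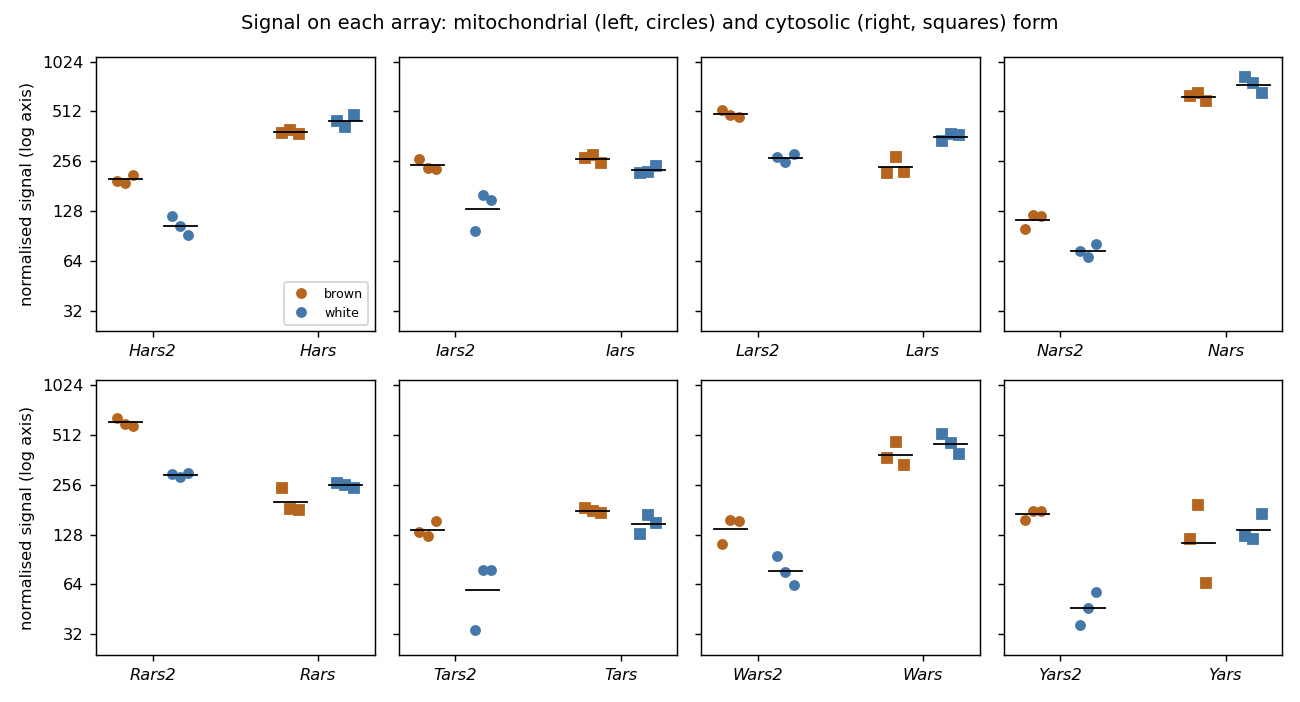
Normalised signal on each array (log axis) for the 8 pairs with both forms tested, brown and white, with a line at the geometric mean of 3 arrays. In each panel the mitochondrial form (circles) is higher in brown, while the cytosolic form (squares) differs less or the other way; heights of different genes come from different probes and cannot be compared.

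**Figure D3:**
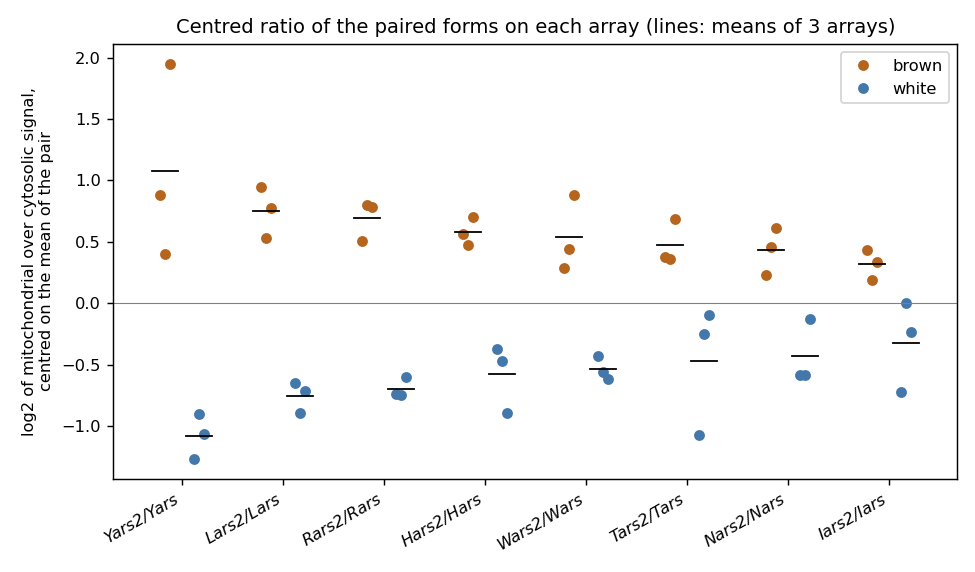
Log2 ratio of mitochondrial to cytosolic signal on each array, centred on the mean of its pair (vertical axis), for 8 pairs ordered by the tissue difference. Every brown point lies above every white point of its pair, with differences from 0.64 for Iars2/Iars to 2.16 for Yars2/Yars, where Yars was called absent on all brown arrays.

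Of the tested factors that act with mitochondrial synthetases, more were called higher in brown than the 28.2% of all genes. Mitochondria lack a glutaminyl-tRNA synthetase of their own: Ears2 loads glutamate on that tRNA and the amidotransferase of Qrsl1, Gatb and Gatc converts it, while Mtfmt formylates the initiator methionyl-tRNA. Of these 4 list members 3 were tested and all 3 were higher in brown, Qrsl1 by 1.40 (332 ± 22.6 against 126 ± 12.0, SD, n = 3; limma adjusted p = 5.21e-06), Gatc by 0.85 and Mtfmt by 0.52; 1 of them stayed called with spike-in scaling. Mitochondrial translation factors were higher in brown for 6 of 9 tested members and in white for 0, with 3 not called (median 1.64). Mtres1, an RNA-binding protein of mitochondria, differed by 2.29 (1073 ± 23.0 against 220 ± 26.9, SD, n = 3), the elongation factor Tufm, which carries charged tRNA to the ribosome, by 1.90 and the translocation factor Gfm1 by 1.72. The ribosome recycling factor Mrrf (0.24) and the release factor Mtrf1l (0.00) were among those not called. Genes for mitochondrial tRNA processing and modification were higher in brown for 10 of 14 and in white for 0 (median 0.70), or 5 and 3 with the deposited scaling. They were led by Mto1 (1.65) and Trit1 (1.54), which modify bases in and beside the anticodon, and Trmt10c (1.51), a subunit of the enzyme that trims tRNA at its front end.

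Among 20 initiation factors, 5 had higher signals in brown and 7 in white, and 8 missed the threshold (median -0.00; 3 and 13 with the signals as deposited). Both counts are near the shares over all genes, 28.2% and 32.7%. Subunits of eIF2B, which recharges the initiation factor eIF2, were on both sides, with Eif2b4 at 1.11 and Eif2b1 at 0.61 against Eif2b2 at -0.78, while Eif3a (-0.57) and Eif3f (-0.52) were higher in white. Of 5 elongation factors tested, Eif5a (-0.40), Eef2 (-0.36) and Eef1a1 (-0.25) were higher in white and 2 were not called, whereas with median centring 0 were higher in white and 2 in brown. Cytosolic synthetases are partly held in a complex by 3 scaffold proteins. Of these, Eef1e1 was higher in brown (0.44, limma adjusted p = 0.00792), and Aimp1 (-0.02) and Aimp2 (-0.28) were not called, while with the signals as deposited 0 of the 3 were higher in brown and 2 in white. Among 4 factors that clear mischarged tRNA, Aarsd1, which acts on alanyl-tRNA, was higher in brown (0.87) and the other 3 were not called; with the signals as deposited 0 of the 4 were higher in brown and 1 in white.

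**Figure D4:**
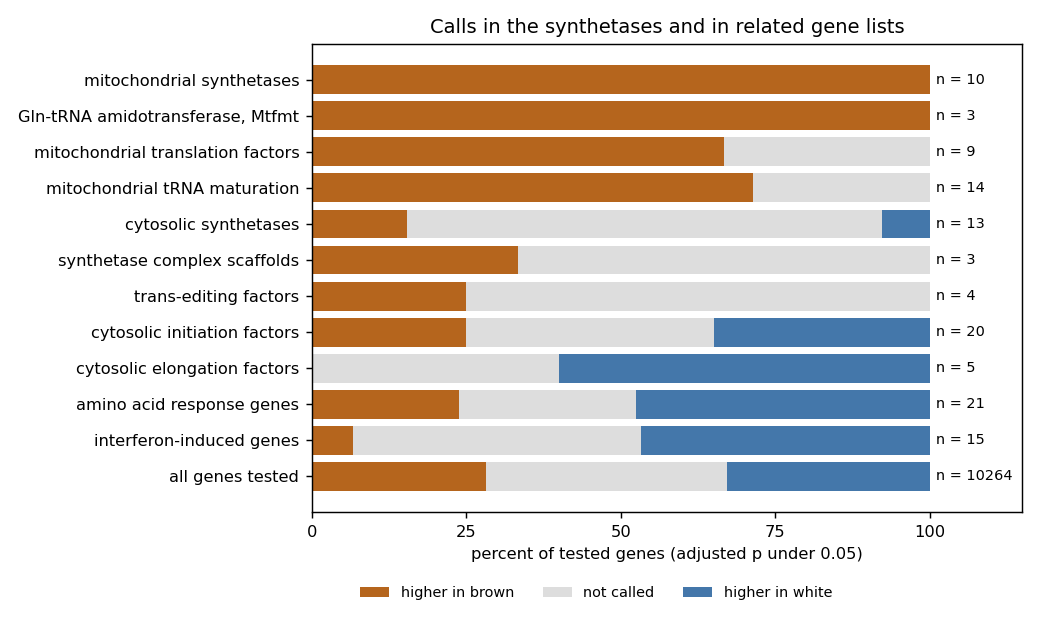
Percent of tested genes called higher in brown, higher in white or not called (adjusted p under 0.05) in the synthetases, in related gene lists and in all 10264 genes tested, with the number tested at the right. All 10 mitochondrial synthetases are higher in brown, against 2 of 13 cytosolic synthetases and 28.2% of all genes.

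Many cytosolic synthetase genes are known targets of the transcription factor ATF4, which raises amino acid supply and tRNA charging when amino acids run short, through a short promoter element. RefSeq promoter windows (GRCm38.p6, 250 bases before to 50 after the gene start) were found for 27 of the 36 members and searched on both strands for the letters TGATGNAA, the core of that element. It was present in 4 of 10 cytosolic members with a window (Aars, Iars, Tars and Yars), in 1 of 3 shared or special members (Gars) and in 0 of 14 mitochondrial members, and in 4.51% of 27025 genes in the table. The other cytosolic windows held no match either, and the mitochondrial count is near the share of all genes. Lack of a match therefore does not set the mitochondrial forms apart. The stretches around the matches are shown 5′ to 3′ along the gene, with the match in capitals on whichever strand it was found. Aars holds 2 matches:
Aars, chr8:111033690-111033891, plus strand: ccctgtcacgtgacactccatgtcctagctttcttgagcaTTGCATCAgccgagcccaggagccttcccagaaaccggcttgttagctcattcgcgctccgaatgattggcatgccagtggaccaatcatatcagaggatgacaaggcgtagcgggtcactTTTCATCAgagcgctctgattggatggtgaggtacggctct
Iars, chr13:49682097-49682179, plus strand: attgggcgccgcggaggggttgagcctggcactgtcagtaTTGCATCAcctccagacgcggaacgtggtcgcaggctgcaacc
Tars, chr15:11399626-11399713, minus strand: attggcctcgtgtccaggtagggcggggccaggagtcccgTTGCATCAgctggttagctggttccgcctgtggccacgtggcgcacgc
Yars, chr4:129189866-129189952, plus strand: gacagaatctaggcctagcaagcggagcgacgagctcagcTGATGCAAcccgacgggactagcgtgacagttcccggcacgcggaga
Gars, chr6:55037931-55038018, plus strand: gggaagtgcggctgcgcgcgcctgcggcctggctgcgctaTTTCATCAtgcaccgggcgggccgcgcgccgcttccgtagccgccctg
For comparison, the whole windows of the mitochondrial forms with the largest and the third-largest difference (the window of Fars2, between them, overlaps that of a neighbour) hold no match and therefore have no capitals:
Yars2, chr16:16302715-16303014, plus strand: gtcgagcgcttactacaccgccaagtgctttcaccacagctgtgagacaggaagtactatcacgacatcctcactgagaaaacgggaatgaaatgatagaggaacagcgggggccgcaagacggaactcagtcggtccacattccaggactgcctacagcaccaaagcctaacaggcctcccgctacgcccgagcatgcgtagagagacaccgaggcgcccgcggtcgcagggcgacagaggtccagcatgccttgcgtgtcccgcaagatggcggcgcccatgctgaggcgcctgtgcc
Cars2, chr8:11550722-11551021, minus strand: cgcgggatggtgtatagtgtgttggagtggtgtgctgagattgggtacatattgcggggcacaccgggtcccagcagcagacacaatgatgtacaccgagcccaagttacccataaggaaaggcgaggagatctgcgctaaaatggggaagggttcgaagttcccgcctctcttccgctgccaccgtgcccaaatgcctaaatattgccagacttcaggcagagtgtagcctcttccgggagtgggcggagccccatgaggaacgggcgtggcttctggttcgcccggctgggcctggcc
The match began 30 bases before the annotated start of Gars, 15 before that of Tars and, for the first of its matches, 112 before that of Aars. The other 3 matches began after the annotated start, those of Iars and Yars and the second match of Aars. Of the 5 genes with a match, Gars was higher in brown and Aars, Iars, Tars and Yars were not called, so members with the same letters did not share a call. An E-box (CACGTG) was found in 4 of 10 cytosolic and 1 of 14 mitochondrial members and in 8.09% of all genes; Aars, Iars and Tars held both this box and TGATGNAA. NRF-1, GABP and ERR are factors known from nuclear genes of mitochondria. The full NRF-1 palindrome, GCGCATGCG with C added at its end, was in 0 of 14 mitochondrial windows and in 1.07% of all genes. The letters GCGCATGCG alone, searched after that result was seen, were in 2 of 14 mitochondrial windows (Vars2 and Wars2), in 0 of 10 cytosolic windows and in 1.95% of all genes. CCGGAAGTG of a GABP site and TCAAGGTCA of an ERR site were in 0 of 14 mitochondrial windows and in 2.25% and 0.466% of all genes. Windows of 6 members overlap that of a gene on the other strand, among them Sars2 with the mitochondrial ribosomal gene Mrps12, Fars2 with Lyrm4, and Yars, 1 of the genes with TGATGNAA, with S100pbp.

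Other genes of the amino acid response went both ways. Of the 21 measured, 5 had higher signals in brown and 10 in white, and 6 missed the threshold (median -0.30); the shares over all genes were 28.2% and 32.7%, and the brown count is near its share. Leaving out brown replicate 2 gave 3 brown calls, as did leaving out white replicate 3, and the deposited scaling gave 2. Atf4 itself had 816 ± 108 in brown and 762 ± 27.5 in white (SD, n = 3) and was not called (0.09, limma adjusted p = 0.464), nor was asparagine synthetase, Asns (0.14). The serine synthesis genes Phgdh (469 ± 51.7 against 3448 ± 177, SD, n = 3; -2.88) and Psat1 were higher in white, Psat1 by at least 27.7-fold in mean log2 signal since it was called absent on all brown arrays. The third gene of that pathway, Psph, was higher in brown (1.23), as was Atf5 (1.05), and the amino acid transporter subunit Slc3a2 was higher in white (-0.87). Wars is also known as an interferon-induced gene. Of 15 tested interferon-induced genes, Rsad2 (0.84) had the 1 call for brown, 7 were higher in white (32.7% of all genes were) and 7 missed the threshold (median -0.27); the white count was 12 with the signals as deposited and 4 among genes present on all arrays. Ifit2 was higher in white by at least 3.69-fold in mean log2 signal, Oasl2 by at least 2.38-fold and Gbp2 by 0.93 on the log2 scale (-0.93), while Wars was not called.

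**Figure D5:**
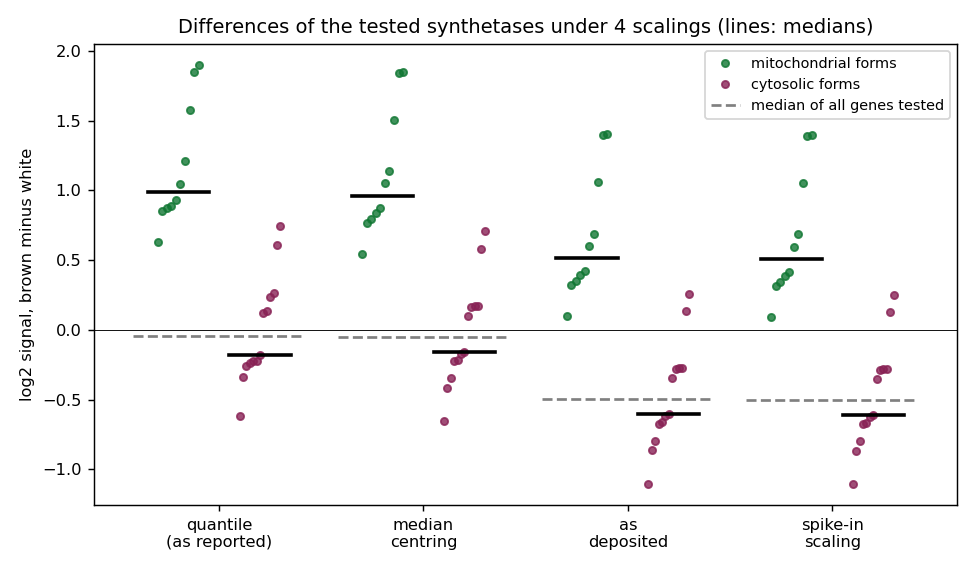
Differences of the tested mitochondrial and cytosolic synthetases (vertical axis, log2 signal, brown minus white) under 4 scalings of the arrays, with solid lines at the group medians and dashed lines at the median of all genes tested. The scalings move both groups together with all genes, and the mitochondrial median lies 1.01 to 1.03 above the median of all genes in each.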

How the data were processed

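Each array (Affymetrix mouse 430_2, 45101 probe sets) has its own deposited file. Per the file headers it gives the signal, an intensity that is not log-transformed, with its detection p-value and call. Their software and scaling were not given in the sources used here. A deposited series-wide table also holds signal intensities, of unstated scaling and centring, and was only compared with the array files. Its column medians were 62.9 to 64.3 for brown and 55.9 to 56.8 for white.

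After 64 control probe sets were left out, log2 signals were quantile-normalised, because the 2% trimmed means differed by 37.2%, above a limit of 10%. The 1 signal of 0 was set to 0.1. The 19819 probe sets with 3 or more present calls among 6 arrays were fitted with limma 3.58.1 in R 4.3.3 (lmFit, eBayes with trend), checked on simulated data. Each gene was represented by its brightest probe set, with Benjamini-Hochberg adjustment over 10264 genes. "At least" folds compare means of log2 signals (ratios of geometric means), with a gene called absent throughout 1 tissue set to the higher of its own signal and the lowest present signal. A mitochondrial form was paired with the cytosolic form for the same amino acid (Eprs for Ears2 and Pars2, Farsa for Fars2). Every member was accounted for, with per-array values where a called difference reached 1, where a pair was called both ways, and for Gars, Kars and Qars; values of other members were added after they were seen. Related lists name up to 3 called members in the main direction and up to 2 in the other, with a few uncalled members added after their values were seen. Members and lists were chosen with earlier results of these data known. Samples are described as biological replicates; the number of arrays limits precision.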

Additional observations from a re-analysis of the deposited data

How the results depend on the processing

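In each of 15 alternatives (9 other settings and leaving out each of 6 arrays) the tested mitochondrial forms kept their direction. For 5 of the 10, and for Gars and Lars, the call held in every alternative. With the deposited scaling 6 mitochondrial forms were higher in brown (median 0.51), and 1 cytosolic form was higher in brown and 10 in white (median -0.61). With spike-in scaling these values were 6 (0.51), 0 and 7 (-0.61). The mitochondrial median was 0.72 and the median pair difference 0.78 with 64 signal units added. Without the detection filter 14 of 16 pairs had the higher ratio in brown. Each pair added there holds a form below the filter, in some cases called absent on all 6 arrays. Averaging probe sets gave a median pair difference of 0.89, a cytosolic median of -0.038 and 2 cytosolic forms higher in white. Median centring gave 2 higher in white, and probe sets present on all arrays gave 3 (median -0.030). Without x_at and s_at probe sets 1 cytosolic form was higher in brown (median 0.068). With the replicate number as a block 2 cytosolic forms were higher in white, and Qars and Nars became called. Deviations of same-numbered brown and white arrays correlated at 0.0172, -0.0138 and -0.046, and not every array correlated best with its own number, so the numbers were not taken to pair samples. Leaving out 1 array gave 10 mitochondrial forms higher in brown and 0 in white (medians 0.99 to 1.03), 2 cytosolic forms higher in brown and 1 to 3 in white (medians -0.21 to 0.15), and 8 pairs (median 1 to 1.195).

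Single genes turned sign in few settings. With the deposited and spike-in scalings Eprs had -0.35 and -0.36, Iars -0.28 and -0.28, Kars -0.36 and -0.36, Sars -0.28 and -0.28, and Tars -0.28 and -0.29. Without x_at and s_at probe sets Aars had 0.017 and Wars 0.21. Leaving out 1 array moved Yars between -0.63 and 0.15, with 0.15 without brown replicate 3. List medians that turned were trans-editing factors at -0.22 and -0.23 with the deposited and spike-in scalings, elongation factors at 0.14 with median centring, and amino acid response genes at 0.091 with presence on all arrays. Initiation factors had 0.087 with median centring, 0.018 with averaged probe sets and 0.013 without x_at and s_at probe sets, and -0.030 to 0.036 with 1 array left out. Complex scaffolds had -0.10 to 0.027 with 1 array left out. The median of all genes was 0.063 without the filter and 0.024 with presence on all arrays. The causes of these turns were not tested. Absent calls limit Yars and the members below the filter, and the low signal on white replicate 1 limits Tars2.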
